A study of Homo sapiens with 6 samples.

Results

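The 10 AP-1 family genes FOS, FOSB, FOSL1, FOSL2, JUN, JUNB, JUND, ATF2, ATF3 and BATF3 were taken by name from the table of 36601 gene rows, and all 10 were present and passed the filter on low counts. The libraries came from U2OS, a human osteosarcoma cell line, carrying a doxycycline-induced TDP-43-mNLS-Clover, a fluorescently tagged TDP-43 whose nuclear localization signal is mutated. Aggregate libraries (n = 3) held sorted cells with Clover aggregates 48 hours after transfection with 50 nM TDP-43 LCD fibril seeds, that is, seeds of the low-complexity domain. Diffuse libraries (n = 3) held sorted cells with diffuse Clover signal 48 hours after mock transfection with protein storage buffer. Both groups carried the induced transgene in the same cell line, and the series design describes the 3 transfections of each group as independent biological replicates. Because seeding, aggregation and sort gate coincide, their contributions cannot be told apart. Levels are counts per 1000000 counts of a library (CPM) after TMM scaling, fold changes are aggregates over diffuse, and a change was called at an adjusted p of at most 0.05 in edgeR's quasi-likelihood test over all genes.

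AP-1 is a transcription factor made of a pair of basic leucine zipper (bZIP) proteins, whose zippers hold the pair together and whose basic regions grip DNA. JUN proteins can pair with each other or with FOS proteins, whereas FOS proteins need a partner such as JUN. FOS, FOSB, JUN and JUNB are immediate early genes, switched on within minutes of a growth or stress signal through MAP kinases, while FOSL1 and FOSL2 follow later and JUND is more steadily expressed. In bone, FOS is known for driving osteosarcoma when overexpressed in mice.

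The 250 bases before the annotated start (RefSeq, GRCh38.p14) were available for 7 of the 10 members, and those of FOS, FOSB, FOSL2, JUN, JUNB and JUND are printed because these genes moved together or, in JUND, did not pass the test. Capitals mark matches on either strand to TGANTCA (the classical AP-1 element), TGACNTCA (the longer CRE-like element that ATF2 and JUN bind), TGACGT (the core of a CREB and ATF site) or the CArG box bound by SRF. TGACNTCA and TGACGT overlap where the longer element reads TGACGTCA.
FOS, chr14:75278578-75278827, plus strand: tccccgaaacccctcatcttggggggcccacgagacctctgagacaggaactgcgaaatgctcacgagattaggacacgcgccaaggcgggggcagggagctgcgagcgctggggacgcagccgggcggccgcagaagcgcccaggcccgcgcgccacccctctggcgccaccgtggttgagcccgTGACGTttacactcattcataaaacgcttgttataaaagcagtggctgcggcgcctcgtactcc
FOSB, chr19:45467746-45467995, plus strand: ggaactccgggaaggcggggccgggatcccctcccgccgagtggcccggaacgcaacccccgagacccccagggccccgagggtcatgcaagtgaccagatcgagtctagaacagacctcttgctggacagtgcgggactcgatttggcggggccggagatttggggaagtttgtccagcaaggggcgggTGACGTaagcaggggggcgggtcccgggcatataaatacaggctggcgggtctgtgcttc
FOSL2, chr2:28392608-28392857, plus strand: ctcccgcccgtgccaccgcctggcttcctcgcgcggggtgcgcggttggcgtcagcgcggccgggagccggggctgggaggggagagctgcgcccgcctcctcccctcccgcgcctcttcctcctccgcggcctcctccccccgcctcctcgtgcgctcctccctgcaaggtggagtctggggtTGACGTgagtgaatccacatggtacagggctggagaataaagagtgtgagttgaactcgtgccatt
JUN, chr1:58784048-58784297, minus strand: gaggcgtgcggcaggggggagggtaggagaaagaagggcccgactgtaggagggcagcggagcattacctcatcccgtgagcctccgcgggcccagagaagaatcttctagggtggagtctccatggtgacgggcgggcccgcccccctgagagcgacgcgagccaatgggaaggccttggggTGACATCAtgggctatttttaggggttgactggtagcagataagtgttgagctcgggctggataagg
JUNB, chr19:12791236-12791485, plus strand: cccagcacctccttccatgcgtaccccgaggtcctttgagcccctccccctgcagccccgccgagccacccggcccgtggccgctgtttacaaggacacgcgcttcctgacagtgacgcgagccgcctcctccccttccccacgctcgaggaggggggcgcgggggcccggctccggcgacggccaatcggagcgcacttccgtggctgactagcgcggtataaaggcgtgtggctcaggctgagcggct
JUND, chr19:18281623-18281872, minus strand: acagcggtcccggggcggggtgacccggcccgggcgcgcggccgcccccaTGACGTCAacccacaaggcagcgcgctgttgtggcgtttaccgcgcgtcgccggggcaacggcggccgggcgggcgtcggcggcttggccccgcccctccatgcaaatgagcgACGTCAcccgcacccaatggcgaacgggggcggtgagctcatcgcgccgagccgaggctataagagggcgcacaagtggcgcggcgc
FOS, FOSB and FOSL2 each held 1 TGACGT, starting 64, 60 and 66 bases before the start. JUN held TGACATCA, 67 bases before the start, and JUND held TGACGTCA 200 bases before the start and a further reverse-strand TGACGT at 87. No motif searched was found in the JUNB window. Over 35116 windows of this length, TGACGT was found in 7.1%, TGACNTCA in 6.87%, TGANTCA in 6.57% and the CArG box in 1.16%. ATF3 had 2 RefSeq windows, neither at the first exon that its main spliced reads joined, and they are not printed. A match is a description of letters, not a binding site.

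The 4 FOS-subfamily genes share an internal exon of 108 bases that encodes the basic region. It is printed from the GENCODE 29 transcripts (hg38), 5′ to 3′ along each gene, with the positions at which all 4 genes agree in capitals, because the inclusion of this exon was measured.
FOS, chr14:75280560-75280667, plus strand: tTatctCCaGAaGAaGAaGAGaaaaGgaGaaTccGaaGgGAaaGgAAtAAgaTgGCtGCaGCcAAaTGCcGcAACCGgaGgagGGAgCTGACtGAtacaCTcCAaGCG
FOSB, chr19:45471194-45471301, plus strand: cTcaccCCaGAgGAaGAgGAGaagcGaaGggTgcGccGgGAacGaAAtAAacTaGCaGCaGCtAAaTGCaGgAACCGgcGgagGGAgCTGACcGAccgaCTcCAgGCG
FOSL1, chr11:65894014-65894121, minus strand: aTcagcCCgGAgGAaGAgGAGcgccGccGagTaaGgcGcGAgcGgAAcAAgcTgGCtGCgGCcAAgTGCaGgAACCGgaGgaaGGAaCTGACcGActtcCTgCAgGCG
FOSL2, chr2:28408759-28408866, plus strand: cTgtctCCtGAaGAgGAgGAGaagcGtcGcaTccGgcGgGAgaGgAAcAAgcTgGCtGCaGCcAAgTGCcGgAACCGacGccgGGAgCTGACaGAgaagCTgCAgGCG
All 4 genes agreed at 60 of the 108 positions. FOS and FOSL1 were the least alike pair, with 71 identical bases, and FOS and FOSL2 the most alike, with 81.

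For the libraries as a whole, total gene counts were 40279084 to 46863013 and TARDBP, the gene of TDP-43, was at 2534, 2590 and 2617 CPM in aggregate and 7368, 7267 and 7685 CPM in diffuse libraries, endogenous gene and transgene together. The mesenchymal markers VIM, COL1A1, COL1A2, SPARC, RUNX2 and TWIST1 summed to 3458 to 3761 CPM in aggregate and 5713 to 5940 CPM in diffuse libraries, with 5 of 6 tested, 3 fallen and 1 risen, and TWIST1 at 4 counts in all. The blood markers PTPRC and CD3E had 61 and 2 counts in all 6 libraries together. Endothelial markers (PECAM1, CDH5 and VWF) summed to 1.47 to 2.28 CPM over the 6 libraries. Epithelial markers (EPCAM, CDH1 and KRT5) summed to 7.37 to 8.67 CPM over all libraries, and neuronal markers (SNAP25, RBFOX3 and SYT1) to 44.4 to 45.5 CPM in aggregate and 56.2 to 58.5 CPM in diffuse libraries. Within the neuronal list SNAP25 (log2 fold change -0.71) and SYT1 (-1.68) fell, while RBFOX3 rose from 2.79 ± 0.159 to 20.1 ± 1.49 CPM. The part of these differences in the AP-1 results was not tested.

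Of the 10 members, 7 were called lower in aggregate cells, FOSL1 and BATF3 were called higher, and JUND did not pass. Among all 17839 genes tested, 75.4% were called, 37.6% lower and 37.8% higher. The median log2 fold change was -0.78 over the members and 0.01 over all tested genes. The groups did not overlap for 9 of the 10 members, against 76.2% of all genes tested.

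**Figure D1:**
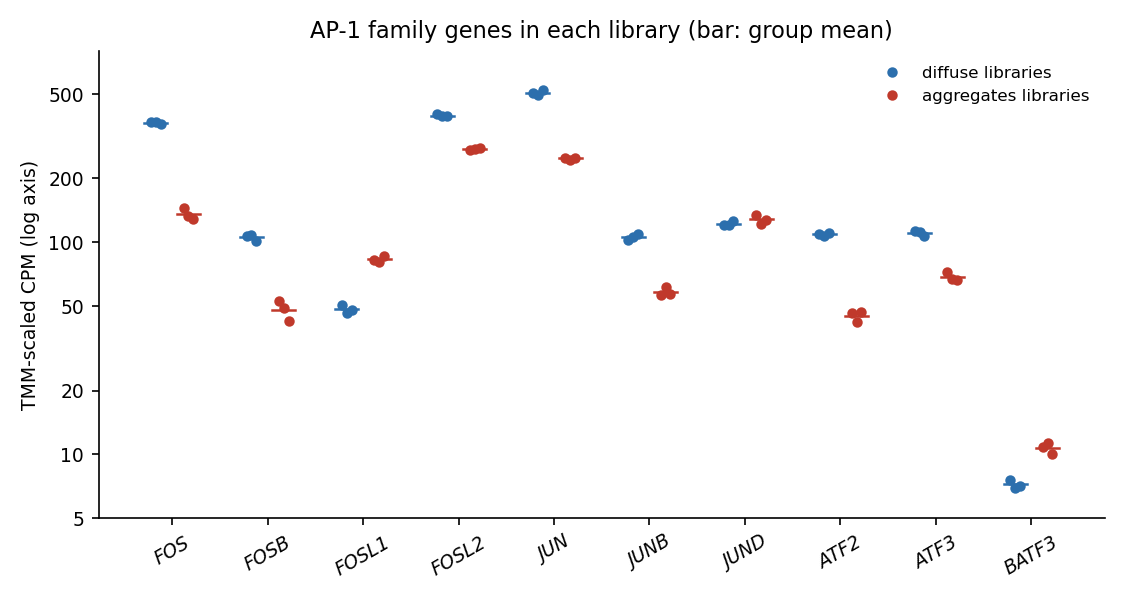
TMM-scaled CPM (log axis) of the 10 AP-1 genes in the 3 diffuse (blue) and 3 aggregate (red) libraries, with the group mean as a bar. FOS, FOSB, FOSL2, JUN, JUNB, ATF2 and ATF3 are lower and FOSL1 and BATF3 higher in every aggregate library, while the groups overlap for JUND.

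FOS (chromosome 14, 75278774 to 75282230, plus strand), the founding member of the FOS proteins, had 368, 368 and 362 CPM in diffuse libraries 1, 2 and 3 and 145.5, 134 and 128 CPM in aggregate libraries 1, 2 and 3. Every aggregate library lay far below every diffuse library. The fall was 2.7-fold (log2 fold change -1.43, SE 0.04, adjusted p = 6.97e-53), and 3.36% of all tested genes had a lower fold change. FOSB (chromosome 19, 45467995 to 45475179, plus strand), a close relative induced by the same signals, had 107, 108.5 and 102 CPM in diffuse and 52.9, 48.9 and 42.4 CPM in aggregate libraries. The groups did not overlap, and the aggregate libraries spread more widely (48.1 ± 5.29 against 105.8 ± 3.62 CPM, SD, n = 3 each). Its log2 fold change was -1.14 (SE 0.06, adjusted p = 6.03e-12). The gene lies inside the span of ERCC1 on the opposite strand, without shared exon sequence in GENCODE 29, and ERCC1 was called higher (log2 fold change 0.51).

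FOSL1 (chromosome 11, 65892049 to 65900573, minus strand), which encodes FRA1, moved the other way. It had 50.6, 46.6 and 47.8 CPM in diffuse and 83.0, 80.6 and 86.1 CPM in aggregate libraries, so that every aggregate library exceeded every diffuse one. The rise was 1.72-fold (log2 fold change 0.78, SE 0.04, adjusted p = 6.15e-33), and 10.5% of tested genes had a higher fold change. FOSL2 (chromosome 2, 28392448 to 28417312, plus strand), which encodes FRA2, had 401, 393 and 394 CPM in diffuse and 271, 276 and 278 CPM in aggregate libraries. The groups stood apart, with little spread inside either, and the log2 fold change was -0.53 (SE 0.04, adjusted p = 4.83e-25). This was the smallest fall among the 7 members called lower.

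JUN (chromosome 1, 58780788 to 58784327, minus strand), the central partner of the FOS proteins, had 505, 496 and 524 CPM in diffuse and 251, 244.5 and 250 CPM in aggregate libraries. Its fall was 2.05-fold with no overlap (log2 fold change -1.03, SE 0.04, adjusted p = 3.01e-45). JUNB (chromosome 19, 12791496 to 12793315, plus strand), a weaker activator than JUN at many sites, had 103, 105.6 and 109.9 CPM in diffuse and 56.3, 61.5 and 56.9 CPM in aggregate libraries. It fell by 0.87 on the log2 scale (SE 0.04, adjusted p = 9.01e-37), again without overlap. Of its exon sequence, 259 bases overlap HOOK2 on the other strand. HOOK2 was called higher, at 14.2 against 11.8 CPM (log2 fold change 0.27), and the strand setting of the counting is not given in the sources used here. JUND (chromosome 19, 18279760 to 18281622, minus strand), the most steadily expressed JUN gene, had 121.0, 120.6 and 126 CPM in diffuse and 135, 123 and 127 CPM in aggregate libraries. The groups overlapped. The log2 fold change was 0.07 (SE 0.04, 95% interval -0.01 to 0.14) and did not pass (adjusted p = 0.101). Without aggregates replicate 2 the call changed, with a log2 fold change of 0.10 and adjusted p = 0.019.

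ATF2 (chromosome 2, 175072250 to 175168382, minus strand), which pairs with JUN at CRE-like sites and is activated by phosphorylation rather than induction, had 109.6, 107.5 and 110.2 CPM in diffuse and 46.3, 42.3 and 46.8 CPM in aggregate libraries. The aggregate libraries all lay below 50 CPM and the diffuse ones all above 100. Its log2 fold change of -1.28 (SE 0.04, adjusted p = 3.41e-49) was, after FOS, the strongest fall among the members. Of the ATF2 exon sequence, 246 bases overlap AC096649.1 on the other strand, which did not pass the filter on low counts. ATF3 (chromosome 1, 212565334 to 212620777, plus strand), a stress-induced member, had 113, 112 and 107 CPM in diffuse and 72.6, 67.3 and 66.2 CPM in aggregate libraries. It fell by 0.69 on the log2 scale (SE 0.04, adjusted p = 2.87e-30) without overlap. BATF3 (chromosome 1, 212686418 to 212699985, minus strand), a small bZIP protein known from dendritic cell development, was the least abundant member, with 303, 292 and 303 counts in diffuse and 467, 534 and 418 counts in aggregate libraries. This made 7.59, 6.95 and 7.10 against 10.8, 11.3 and 10.1 CPM. Its rise did not overlap the diffuse range (log2 fold change 0.58, SE 0.07, adjusted p = 1.31e-11).

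**Figure D2:**
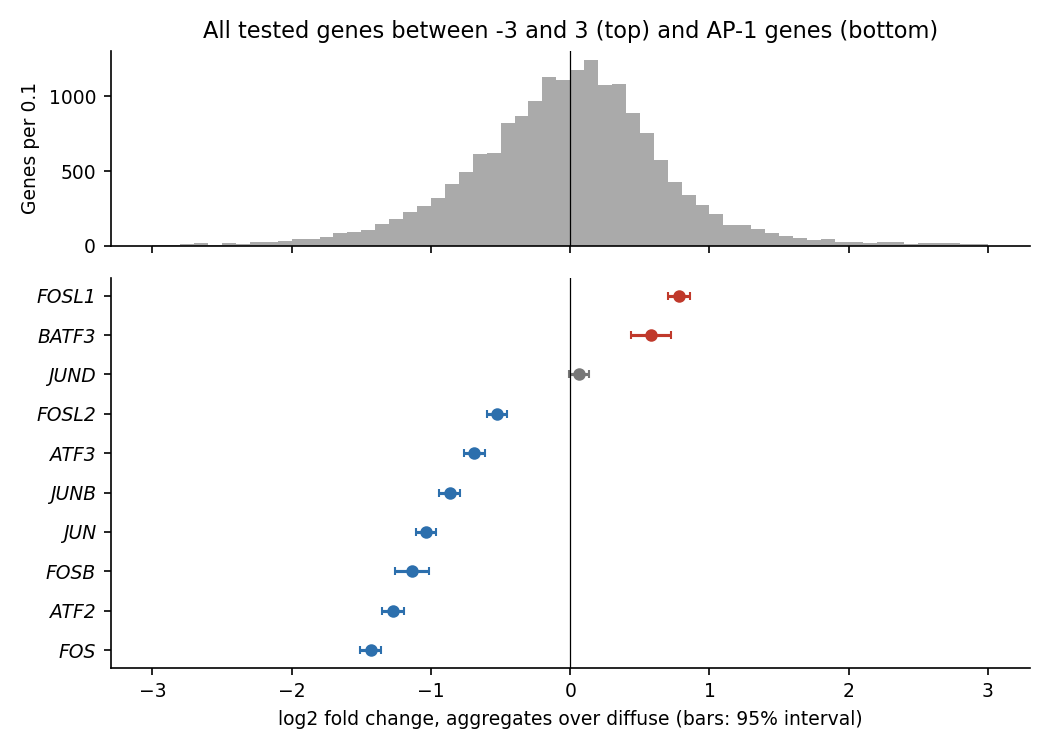
Top, number of tested genes per 0.1 of log2 fold change (genes between -3 and 3). Bottom, log2 fold change of each AP-1 gene with its 95% interval, blue for called lower, red for called higher and grey for not passed. FOS (-1.43) and ATF2 (-1.28) lie lowest and FOSL1 (0.78) highest, and the interval of JUND spans 0.

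To compare abundance between members, CPM was divided by the kilobases of merged exons of each gene. On this scale the 10 genes summed to 529.9, 524.7 and 534.8 CPM per kb in diffuse libraries 1, 2 and 3 and 340.4, 328.2 and 330.2 in aggregate libraries. The total was lower in every aggregate library, at 0.628 times the diffuse mean (exact two-sided permutation test, p = 0.1, the smallest that 3 libraries against 3 allow). In bulk RNA, fewer expressing cells and less RNA per cell cannot be told apart. The FOS subfamily held 40.0 ± 0.0809% of the total in aggregate cells and 40.2 ± 0.75% in diffuse cells (SD, n = 3 each), with overlapping libraries (exact two-sided permutation p = 0.6). That share depended on the length used: with the longest annotated transcript it was 43.2 ± 0.189% in aggregate and 45.0 ± 0.685% in diffuse cells, without overlap, a difference of -1.79 in place of -0.238 percentage points. Without diffuse replicate 1 the difference over merged exons changed sign (0.0167). The JUN subfamily held 51.4 ± 0.209% and 50.5 ± 0.961% over merged exons, with overlap. The ATF and BATF genes held 8.81, 8.59 and 8.55% in aggregate and 9.42, 9.32 and 9.01% in diffuse libraries, and these did not overlap.

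Within the FOS subfamily, FOS held 52.7, 53.4 and 53.1% of the length-scaled level in diffuse libraries and 32.97, 31.4 and 30.1% in aggregate libraries. FOSL1 held 12.4, 11.6 and 12.04% in diffuse and 32.2, 32.5 and 34.6% in aggregate libraries. The 2 genes therefore stood at a ratio of FOS to FOSL1 of 4.24 to 4.60 in diffuse libraries and of 0.868 to 1.02 in aggregate libraries. FOSL2 held 26.0 ± 0.178% against 28.9 ± 0.943% and FOSB 8.94 ± 0.241% against 6.50 ± 0.621% (diffuse and aggregates). Within the JUN subfamily, JUND held 24.6 ± 0.049% in diffuse and 40.2 ± 1.27% in aggregate cells, and JUN 53.6 ± 0.342% and 41.04 ± 0.405%. JUN exceeded JUND per kb by 2.165 to 2.196 times in diffuse libraries, and the 2 genes were at 0.979 to 1.05 times each other in aggregate libraries, although JUND itself did not pass the test.

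The order of length-scaled levels in diffuse cells was JUN (144 ± 4.01 CPM per kb), FOS (113 ± 1.11), JUND (65.8 ± 1.67), JUNB (58.3 ± 1.92), FOSL2 (55.3 ± 0.622), ATF3 (27.4 ± 0.853), FOSL1 (25.6 ± 1.07), FOSB (19.1 ± 0.652), ATF2 (19.0 ± 0.251) and BATF3 (2.66 ± 0.123). Neighbours whose libraries overlapped there were ATF3 with FOSL1 and FOSB with ATF2. In aggregate cells the order was JUN (70.2 ± 0.979), JUND (68.8 ± 3.29), FOSL1 (44.1 ± 1.45), FOS (41.9 ± 2.73), FOSL2 (38.4 ± 0.497), JUNB (32.0 ± 1.57), ATF3 (17.0 ± 0.845), FOSB (8.66 ± 0.953), ATF2 (7.84 ± 0.428) and BATF3 (3.96 ± 0.233). JUN with JUND, FOSL1 with FOS and FOSB with ATF2 overlapped. FOSL1 thus moved from the seventh to the third place. The order between genes depends on the length used: with the longest annotated transcript, FOS led JUN in diffuse cells and stayed 1.15 to 1.36 times FOSL1 in aggregate libraries, against 5.63 to 6.11 times in diffuse ones.

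**Figure D3:**
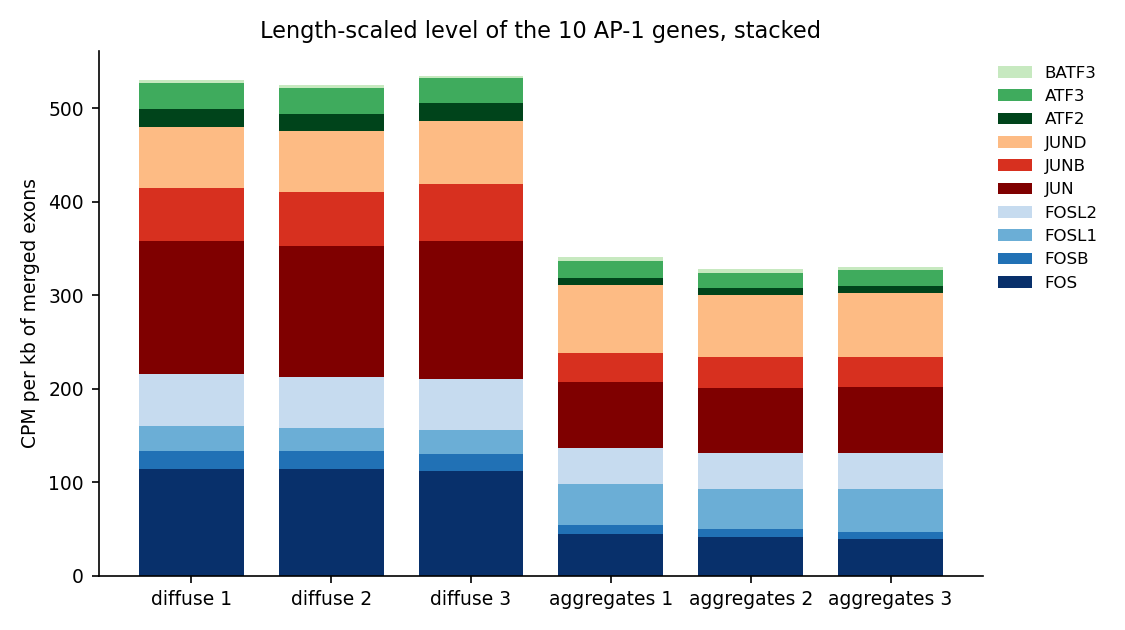
Stacked CPM per kb of merged exons of the 10 AP-1 genes in each library. The stacks reach 524.7 to 534.8 in the diffuse and 328.2 to 340.4 in the aggregate libraries, with the FOS (dark blue) and JUN (dark red) segments shorter and the FOSL1 segment (mid blue) taller in aggregate libraries.

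Spliced reads gave a further view of the same libraries. The LeafCutter table, which lists introns only in clusters that share a splice site, held 72 introns in 15 clusters of 8 members, and none of JUN and JUNB. All 15 clusters were tested for a change of intron use within the cluster and 0 were called (edgeR diffSpliceDGE, Simes adjusted over 35898 clusters), with 2 at an unadjusted p under 0.05. Over all clusters 5.02% were called. The JUND cluster rested on 12 to 20 spliced reads per library. A cluster F test in place of Simes called 1, that of FOSB (adjusted p = 0.016 against 0.344). In that cluster the reads divided over 6 introns, and the counts were 215, 211 and 143 in aggregate and 635, 595 and 678 in diffuse libraries.

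The 108-base exon of the basic region was included differently among paralogs. In FOS it was included in 99.1, 98.6 and 99.8% of the spliced reads of aggregate libraries and in 99.5, 99.2 and 99.6% of diffuse libraries. In FOSL1 inclusion was 88.5 ± 0.875% in aggregate and 88.5 ± 1.41% in diffuse cells (SD, n = 3 each). In FOSB it was 62.6, 69.4 and 66.9% in aggregate and 72.2, 68.7 and 77.9% in diffuse libraries. The FOSB means were 66.3 ± 3.42% and 72.95 ± 4.65%, and the groups overlapped, aggregates replicate 2 lying above diffuse replicate 2 (exact two-sided permutation p = 0.2, where 3 libraries against 3 cannot go below 0.1). At this depth and number of libraries a difference in FOSB inclusion is neither shown nor excluded. These percentages rest on 23 to 40 skipping reads of FOSB per aggregate library and 62 to 83 per diffuse library. For FOSL2 the introns flanking that exon were not both measured.

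Set against all introns instead of their own cluster, the introns of a member showed how even its change was along the gene. Among all 144620 introns tested, 13.9% were called lower and 15.1% higher in aggregate cells. Both main FOS introns (annotated and at least 10% of their cluster) were called lower. The one before the 108-base exon (75280129 to 75280559) had a log2 fold change of -1.39 (SE 0.07). The one after that exon (75280668 to 75280782) had -1.51 (SE 0.06), and the gene value of -1.43 lay between them. No intron nearer the 5′ end of FOS was listed. All 10 main ATF2 introns were called lower, between -1.57 and -1.06. In FOSB the 4 main introns were called lower, and the first (45468713 to 45470628) had the lowest value, -2.29 (SE 0.21), against -1.52 (SE 0.16) for the last (45471302 to 45472550) and -1.14 for the gene count. The FOSB intron before the 108-base exon (45470950 to 45471193) had -1.86 (SE 0.16). The one skipping that exon (45470950 to 45472550) had the smallest fall, -1.21 (SE 0.23). The first main ATF3 intron (212608931 to 212615017) had 12.01, 8.37 and 7.91 spliced CPM in aggregate and 21.9, 22.5 and 22.6 in diffuse libraries. The last main ATF3 intron (212618235 to 212619357) had 11.2, 8.37 and 11.2 against 16.4, 15.4 and 15.9. These gave log2 fold changes of -1.24 (SE 0.09) and -0.64 (SE 0.10). In FOSL1 the 5′ intron (65897007 to 65900240) was called higher by 0.39 (SE 0.11) and the introns on either side of the 108-base exon by 0.96 and 0.93 (SE 0.10 each). That 5′ intron had 12.08, 6.74 and 10.15 spliced CPM in aggregate and 6.45, 7.69 and 7.87 in diffuse libraries. Its groups thus overlapped. The main BATF3 introns had log2 fold changes of 0.41 (5′ intron, not called) and 0.68 (called higher), against 0.58 for the gene. FOSL2 introns had -0.17 (SE 0.08, adjusted p = 0.0948) and -0.24 (SE 0.07, adjusted p = 0.00642), nearer to 0 than the gene value of -0.53. The groups overlapped in both FOSL2 introns. In the called one, aggregates replicate 3 had 28.5 spliced CPM and diffuse replicate 3 had 27.5. Whether 2 introns of a gene differ from each other was not tested where they lie in different clusters, as in ATF3, FOSL2 and BATF3. Within their own clusters, the 5′ introns of FOSB and FOSL1 were tested by diffSpliceDGE and not called (adjusted p = 0.364 and 0.0824).

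**Figure D4:**
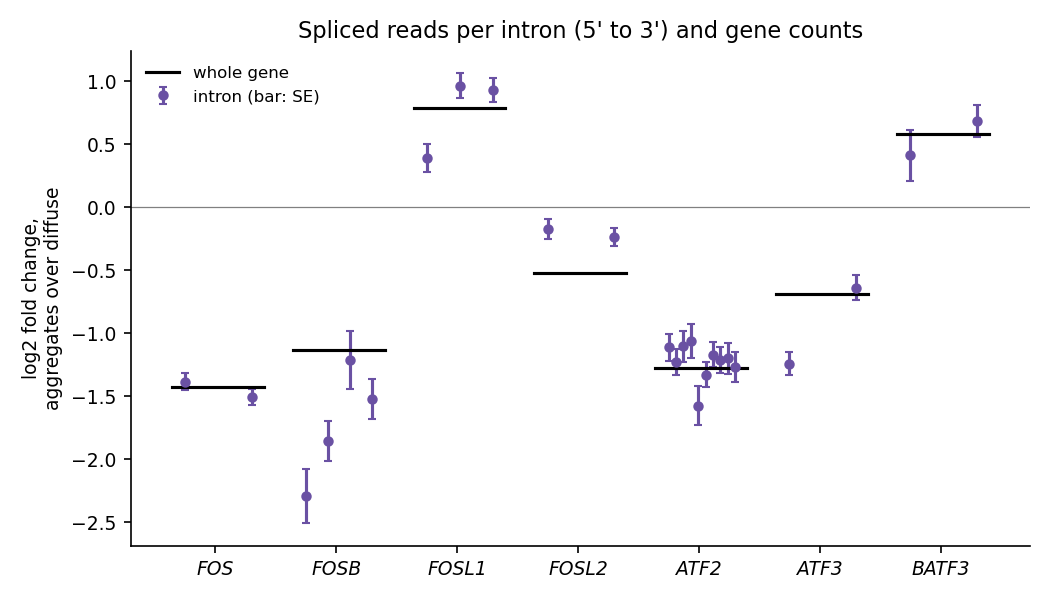
log2 fold change (aggregates over diffuse) of each main annotated intron of 7 AP-1 genes, 5′ to 3′ within a gene, with its SE, and the gene's own value as a black line. Of the introns shown, the most 5′ has the lowest value in FOSB (-2.29), ATF3 (-1.24), FOSL1 (0.39) and BATF3 (0.41), and not in FOSL2 and ATF2. The FOS introns shown flank its 108-base exon, and none nearer the 5′ end was listed. No 5′ intron of FOSB, ATF3, FOSL1 or BATF3 was called against the rest of its cluster. In ATF3 and BATF3 that comparison cannot decide, since the 5′ intron made up nearly the whole cluster and the later main intron lies in another. It held 95.1% (ATF3) and 92.3% (BATF3) of the cluster in aggregate cells, and 97.2% and 97.7% in diffuse cells.

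Genes acting before and after AP-1 were read from lists chosen by function, against the 37.6% called lower and 37.8% called higher over all genes. Of 19 tested other immediate early genes (of 20 listed), 16 fell and 2 rose, with a median log2 fold change of -1.02. The nuclear receptor NR4A2 had 10.4 ± 0.911 against 67.5 ± 6.17 CPM, the zinc finger factor EGR2 had 5.79 ± 0.195 against 30.6 ± 1.71 and IER2 had 39.2 ± 2.66 against 136 ± 3.56 (aggregates and diffuse, SD, n = 3 each). Those that rose were ARC (0.25) and BTG2 (0.51), named after their values were seen. The summed level of the whole list was 2179 to 2263 CPM in aggregate and 3995 to 4105 CPM in diffuse libraries.

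Among 25 tested bZIP partners (of 28 listed), 13 fell, 8 rose and 4 did not pass (median -0.19). CREB1, which binds CRE sites, had 58.0 ± 1.91 against 143 ± 3.94 CPM. ATF7, the closest relative of ATF2, had 33.02 ± 1.19 against 63.2 ± 1.57 CPM. The small MAF gene MAFG rose from 63.4 ± 0.96 to 102 ± 2.82 CPM.

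Of 22 MAP kinase pathway genes 12 fell, 8 rose and 2 did not pass (median -0.11). MAPK8, which encodes the JUN kinase JNK1, fell from 119 ± 0.743 to 68.8 ± 0.971 CPM, and MAP3K5, a stress kinase above JNK and p38, from 17.4 ± 0.453 to 10.8 ± 0.908 CPM. MAP2K3, which activates p38, rose from 50.7 ± 2.35 to 86.3 ± 2.32 CPM. Among 14 factors acting on the FOS and JUN promoters 8 fell, 2 rose (ELK1 by 0.33 and ELK4 by 0.22, named after their values were seen) and 4 did not pass (median -0.24). Against a fold of 1.2 in place of no change, 4 of these fell and 1 rose, where 26.5% of all tested genes were called lower and 25.1% higher. The SRF coactivator genes MRTFB and MRTFA had log2 fold changes of -1.09 and -0.61 and MEF2A, whose product acts on the JUN promoter, had -0.78. SRF itself was at 130 ± 3.23 against 125 ± 3.13 CPM and did not pass (adjusted p = 0.215).

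Of 10 genes whose products act on the stability of AP-1 mRNA or protein, 5 rose, 4 fell and 1 did not pass (median 0.08). The ARE-binding decay factors divided: ZFP36L2 (-1.002) and ZFP36 (-0.84) fell while ZFP36L1 (0.70), KHSRP (0.36), HNRNPD (0.38) and the stabilizing factor ELAVL1 (0.09) rose. Among ubiquitin ligase genes FBXW7 (-0.28) and ITCH (-0.25) fell, DET1 rose (0.80) and COP1 had 0.07 without passing. All but ZFP36L2, ZFP36 and DET1 were named here after their values were seen. Against a fold of 1.2, at which 26.5% of all tested genes were called lower and 25.1% higher, 2 fell and 4 rose.

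Of 23 tested textbook AP-1 target genes (of 24 listed), 11 rose, 9 fell and 3 did not pass (median 0.10). Those with the largest changes rose: the matrix metalloproteinase MMP3 from 6.52 ± 0.437 to 216 ± 14.8 CPM, the osteopontin gene SPP1 from 12.5 ± 0.61 to 259 ± 11.1 CPM and the chemokine CXCL8 from 7.22 ± 1.75 to 80.8 ± 6.79 CPM. DUSP1 stands in this list and in the immediate early list, and ZFP36 in the stability and immediate early lists.

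**Figure D5:**
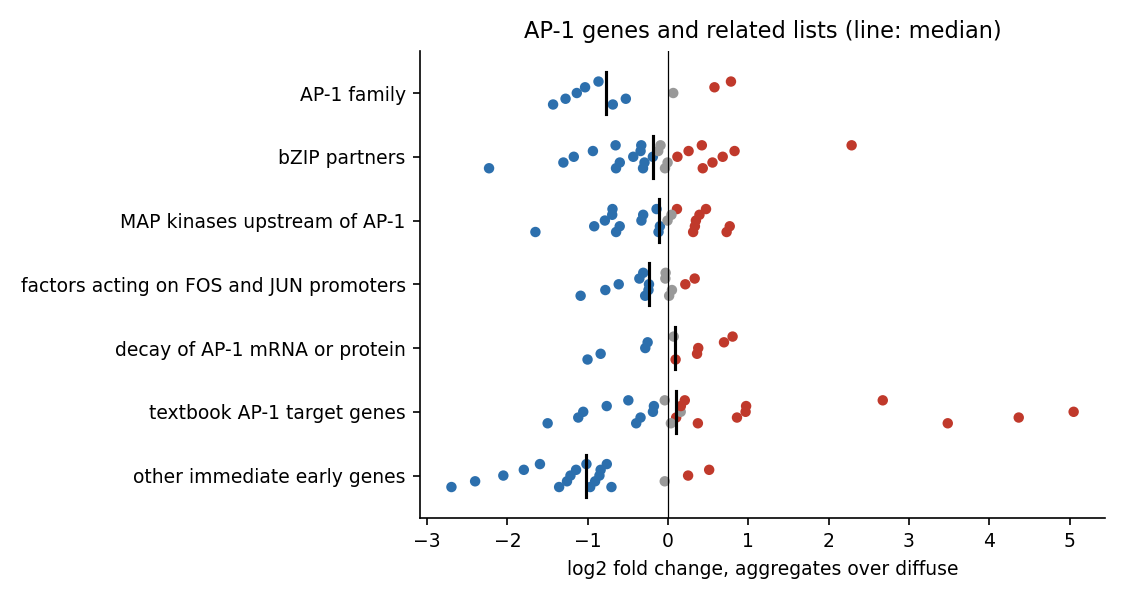
log2 fold change of each tested gene of the AP-1 family and of 6 related lists, blue for called lower, red for called higher, grey for not passed, with the list median as a black line. The medians of the AP-1 family (-0.78) and of the other immediate early genes (-1.02) lie lowest, and the target genes spread from falls to the rise of MMP3 (5.05).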

How the data were processed

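Gene counts and LeafCutter intron counts of 6 polyA RNA libraries were used as deposited by the authors, as raw counts. The build hg38 and the tools STAR 2.7.11a and fastp 0.23.2 are named in the submitters' processing notes. Which program counted genes, with which strand setting and annotation, is not stated there or in the labels. The library kit is stranded per the labels.

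The gene fit used edgeR 4.0.16 (R 4.3.3, filterByExpr, TMM, robust quasi-likelihood F test, Benjamini-Hochberg over 17839 genes). The SE of a log2 fold change is its size divided by the square root of F. The common biological coefficient of variation was 3.08%, and 1 count corresponds to 0.0212 to 0.0251 CPM. Intron clusters needed 2 introns of at least 10 counts in all and 10 counts in every library, and were tested with diffSpliceDGE. Intron positions are the first and last intron base. For exon inclusion, the average count of the introns on either side was divided by itself plus the count that skips the exon. Lengths, exons and gene positions come from GENCODE 29 (hg38). DESeq2 1.42.0 served as an alternative. Scripts were tested on simulated data.

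Groups come from the sample titles. The members and gene lists were chosen with earlier results of these data known. Counting noise alone did not account for the spread between replicates (chi-square per degree of freedom 2.44 to 5.84). All 10 members are named, and from each list up to 3 called genes with the largest change, non-overlapping groups and an average level of 5 CPM or more.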

Additional observations from a re-analysis of the deposited data

How the results depend on the processing

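Of the 10 members, 9 kept their direction and call under all 12 alternatives (DESeq2 size factors, no filter on low counts, DESeq2, a fold of 1.2 as the limit, the replicate block, GC and length correction, and each library left out). FOS ranged from -1.51 to -1.40 and FOSL1 from 0.57 to 0.81 (lowest with GC and length correction); JUND is the exception given with its values above. Replicate numbers did not pair the samples by the rule used (correlations of same-numbered deviations 0.036, 0.083 and 0.06, none above 0.1), although each aggregate library correlated best with the diffuse library of its own number. With the replicate block 7 members fell and 2 rose, as without it, and the listed genes called went from 97 to 99.

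The difference in the FOS subfamily share of the family total was -0.238 percentage points, -1.79 with the longest transcript as length, and -0.668 to 0.0167 with 1 library left out; it changed sign without diffuse replicate 1 (0.0167). The family total in aggregate cells was 0.628 times that in diffuse cells, and 0.607 times with the longest transcript. The cluster F test called 1 member cluster where Simes called 0. Against a fold of 1.2 the genes called higher over the whole table went from 6741 to 4483 and those called lower from 6714 to 4719. The listed genes called went from 97 to 70. Of the immediate early genes 1 rose in place of 2, and of the promoter factors 4 fell in place of 8 and 1 rose in place of 2. Of the mRNA and protein stability genes 2 fell in place of 4. Fewer calls against a fold of 1.2 follow from that limit, which asks for a larger change. The cause of the other shifts was not tested. The depth was enough to test all 10 members, but FOSB and BATF3 introns rest on few spliced reads per library.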

Other observations

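Over the 6 libraries, the genes whose log2 CPM followed FOS most closely were the matrix genes MATN2 (Pearson r = 0.99987) and LAMB2 (0.99981) and the immediate early gene CCN1 (0.99973), out of 5030 genes averaging 50 CPM or more. All 3 were lower in aggregate cells, MATN2 at 97.2 ± 4.73 against 195 ± 1.33 CPM, LAMB2 at 95.9 ± 4.65 against 181.5 ± 1.91 CPM and CCN1 at 605 ± 24.5 against 1094 ± 7.65 CPM (SD, n = 3 each). The points share their libraries and fall into 2 groups. Of these genes, 1732 reached r above 0.95, so that a value this high was common.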
